A study of Mus musculus with 9 samples.

Results

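The nuclear genes for the subunits of oxidative phosphorylation were compared between 3 clones of activated CD8 T cells. They were taken by their symbols, as the rows of the expression table that begin with Nduf, Uqcr, Cox4 to Cox8 or Atp5, together with Sdha, Sdhb, Sdhc and Sdhd. The rule found 92 of the 24060 genes in the table, of which 45 were Nduf, 4 Sdh, 8 Uqcr, 18 Cox and 17 Atp5 genes. By function, 36 belonged to complex I, 4 to complex II, 8 to complex III, 18 to complex IV (Ndufa4 included) and 15 to complex V. The other 11 do not encode subunits of a single complex. They are the complex I assembly factors Ndufaf1 to Ndufaf7 and Atp5sl (now named Dmac2), the supercomplex factor Cox7a2l, the coupling factor gene Atp5s, and Ndufa4l2.

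Named R7-I, R7-II and R7-III, the clones come from 3 transnuclear mouse lines on a BALB/c, Rag2-proficient, CD90.2+ background. Each line was derived from the nucleus of 1 T cell specific for ROP7, a protein of Toxoplasma gondii, so every group stands for 1 T cell receptor in 1 line. Per the labels, affinity for the peptide falls in the order R7-I, R7-III, R7-II, and self-reactivity in the order R7-III, R7-I, R7-II. Spleen cells of all 3 lines were cultured overnight with ROP7 peptide at 10 µM and IL-2 at 10 ng/ml, and live CD3+ CD8+ cells that bound the ROP7 tetramer were sorted. All 9 libraries, 3 biological replicates per clone, were of such stimulated cells, and resting cells were not analysed here. The labels do not say whether the replicates of a clone came from separate animals, so p-values measure the spread between these libraries. A difference between clones cannot be told apart from one between mouse lines.

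Oxidative phosphorylation takes place at the inner mitochondrial membrane. Complexes I and II pass electrons from NADH and succinate to ubiquinone, complex III passes them to cytochrome c, and complex IV passes them to oxygen. Complexes I, III and IV pump protons, and complex V, the ATP synthase, uses the proton gradient to make ATP. T cells raise mitochondrial mass and respiration after activation. The mitochondrial genome encodes a few core subunits of complexes I, III and IV and part of the membrane sector of complex V. None of the 13 protein-coding genes of that genome was among the rows used, so the values below describe the nuclear-encoded part alone.

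The c subunit of complex V shows how closely related some of these genes are. Atp5g1 (chr11:96072793-96075694), Atp5g2 (chr15:102662868-102671047) and Atp5g3 (chr2:73908447-73912464; all GRCm38.p6, the build also called mm10) encode precursors that are cut to the same mature protein, which forms the rotating ring in the membrane. The coding sequence of the mature part was 225 bases, or 75 codons, in each gene, and its translation was identical at all 75 residues. The 3 sequences are shown 5′ to 3′ from GENCODE transcripts of this build, with capitals at the 57 positions where they do not all have the same base.
Atp5g1: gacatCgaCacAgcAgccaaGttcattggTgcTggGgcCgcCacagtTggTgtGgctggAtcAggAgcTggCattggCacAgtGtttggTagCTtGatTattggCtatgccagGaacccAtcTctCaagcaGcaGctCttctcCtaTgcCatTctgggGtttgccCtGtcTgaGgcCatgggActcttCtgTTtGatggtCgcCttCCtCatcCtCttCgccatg
Atp5g2: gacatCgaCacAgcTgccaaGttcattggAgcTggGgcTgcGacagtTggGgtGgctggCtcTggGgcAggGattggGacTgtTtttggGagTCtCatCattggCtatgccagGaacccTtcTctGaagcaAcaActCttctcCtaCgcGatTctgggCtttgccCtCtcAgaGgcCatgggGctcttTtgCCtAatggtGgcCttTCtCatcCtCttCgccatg
Atp5g3: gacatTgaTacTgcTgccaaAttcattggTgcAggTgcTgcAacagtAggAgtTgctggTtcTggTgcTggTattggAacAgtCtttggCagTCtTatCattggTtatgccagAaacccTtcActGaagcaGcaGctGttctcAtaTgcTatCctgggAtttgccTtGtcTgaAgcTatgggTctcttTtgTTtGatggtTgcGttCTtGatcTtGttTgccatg
Atp5g1 and Atp5g2 shared 84.9% of these bases, Atp5g1 and Atp5g3 shared 80.0%, and Atp5g2 and Atp5g3 shared 78.7%. Over the whole transcripts, the longest identical run between any pair was 21 bases.

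The region around the transcription start of the same 3 genes and of Cox7a2l, the member with the smallest adjusted p, is given from RefSeq (GRCm38.p6) on the strand of the gene. Each window runs from 250 bases before to 50 bases after the start used by the table. For Atp5g1 and Atp5g3 that start lies inside the gene interval given above. The Atp5g1 window still reaches past the outer end of its interval, so part of the region before its outermost start was searched. In Atp5g3 the start lies inside by more than the length of the window, so the region before its outermost start was not searched. Capitals mark matches, on either strand, to CGCATGCG (core letters of the site of NRF1, a factor known for nuclear genes of respiration), AAGATGGC (YY1), CCGGAAGT (GABP and other ETS factors) and GGGCGG (SP1). The Atp5g2 window held 1 match to the NRF1 letters and 1 to the SP1 letters, the Cox7a2l window held 2 to the SP1 letters, and those of Atp5g1 and Atp5g3 held none of the 4.
Atp5g1 promoter, chr11:96075582-96075881, minus strand: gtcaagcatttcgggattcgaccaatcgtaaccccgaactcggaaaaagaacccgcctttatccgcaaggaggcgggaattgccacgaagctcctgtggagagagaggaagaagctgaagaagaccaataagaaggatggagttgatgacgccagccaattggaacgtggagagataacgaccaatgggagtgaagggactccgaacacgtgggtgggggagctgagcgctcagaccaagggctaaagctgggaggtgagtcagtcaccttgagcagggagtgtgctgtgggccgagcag
Atp5g2 promoter, chr15:102670998-102671297, minus strand: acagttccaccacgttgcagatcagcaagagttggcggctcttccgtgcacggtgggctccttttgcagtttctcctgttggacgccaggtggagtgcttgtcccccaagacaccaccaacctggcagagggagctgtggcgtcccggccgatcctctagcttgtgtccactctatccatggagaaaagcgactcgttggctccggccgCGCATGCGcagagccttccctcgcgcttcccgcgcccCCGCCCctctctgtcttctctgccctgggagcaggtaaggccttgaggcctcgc
Atp5g3 promoter, chr2:73911277-73911576, minus strand: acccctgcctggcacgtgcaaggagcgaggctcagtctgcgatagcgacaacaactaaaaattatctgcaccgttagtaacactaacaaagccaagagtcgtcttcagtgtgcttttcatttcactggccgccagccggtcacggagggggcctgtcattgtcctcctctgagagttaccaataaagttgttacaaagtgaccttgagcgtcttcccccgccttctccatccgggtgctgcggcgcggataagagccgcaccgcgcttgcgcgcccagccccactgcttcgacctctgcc
Cox7a2l promoter, chr17:83514284-83514583, minus strand: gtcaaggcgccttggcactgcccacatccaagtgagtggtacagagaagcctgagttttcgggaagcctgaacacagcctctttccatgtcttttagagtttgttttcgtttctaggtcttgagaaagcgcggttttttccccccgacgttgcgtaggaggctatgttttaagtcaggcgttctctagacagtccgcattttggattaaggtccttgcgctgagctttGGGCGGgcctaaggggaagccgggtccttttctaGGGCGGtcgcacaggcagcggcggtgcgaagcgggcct
Across the table, 74 of the members tested had such a window. The NRF1 letters were in 11 of them (14.9%), in 4.74% of the windows of all genes tested and in 1.87% of all 32851 windows. The 11 were Atp5g2, Atp5j, Atp5k, Atp5l, Cox6a1, Ndufa8, Ndufa11, Ndufaf4, Ndufaf5, Uqcr11 and Uqcrc1, which span complexes I, III, IV and V. Windows with these letters belonged to 4 of the 27 members with a window that were lower in R7-II relative to R7-I. They belonged to 0 of the 8 that were higher and to 7 of the 39 that were not called. The YY1 letters were in 11 (14.9%, against 5.69% and 2.75%), of which 7 belong to complex I, and the ETS letters were in 5 (6.76%, against 10.1% and 3.89%). The shorter SP1 letters were in 33 (44.6%, against 68.8% and 35.7%). The letters CCAAT (NF-Y) were also searched and were in 33 (44.6%, against 43.7% and 37.4%). They are not capitalised above, and the windows of Atp5g1 and Atp5g3 hold them. A match describes letters in a window and was not tested as a binding site. 

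Levels are given in TPM (estimated by RSEM), a scale per transcript length on which all genes of a library sum to 1000000. Of the 92 members, 86 had a TPM above 1 in at least 1 library and were tested. The 6 others include forms known from other tissues. Cox7b2, Cox8b and Cox8c were listed at 0 in all 9 libraries, and Cox4i2, Cox6a2 and Ndufa4l2 stayed at or below 0.45 TPM. Cox7a1, the heart and muscle partner of Cox7a2, passed only narrowly with 0.00 to 1.10 TPM. By contrast, Cox4i1, Cox6a1, Cox7a2 and Cox8a, the common forms of the same subunits, stood between 205 and 695 TPM.

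The members were abundant. Their sum took between 2.28% and 2.54% of all TPM in a library. The median level per gene over the 9 libraries was 169 TPM in complex I, 194 in complex II, 280 in complex III, 481 in complex IV and 451 in complex V, but 23.1 TPM among assembly and associated genes. Atp5b, the catalytic beta subunit of ATP synthase, had the highest mean level of all members (1965 TPM), followed within complex V by Atp5g3 and Atp5a1. In complex IV the highest was Cox4i1 (642 TPM), in complex III Uqcrq (504 TPM), in complex I Ndufa12 (332 TPM) and in complex II Sdhb (231 TPM), which carries the iron-sulfur centres of succinate dehydrogenase.

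Summed over all 92 members, R7-II had the lowest level. The R7-I libraries held 25049, 25201 and 25250 TPM, the R7-II libraries 22859, 23921 and 22770 TPM, and the R7-III libraries 25330, 25369 and 24713 TPM. Every R7-II library was below every other library, and the ranges of R7-I and R7-III overlapped. The sum in R7-II was 0.921 times that in R7-I and 0.922 times that in R7-III, while R7-III had 0.999 times the sum of R7-I.

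The complexes differed in how far R7-II was below R7-I. The ratio of summed levels was 0.878 for complex III, 0.901 for complex IV, 0.904 for complex V and 0.956 for complex I. It was 1.02 for complex II and 1.24 for the assembly and associated genes, to which Cox7a2l contributed most. Within complex I the ratio was 0.989 for the 7 core subunits, which carry the flavin and the iron-sulfur clusters, and 0.949 for the 29 accessory subunits. Against R7-III the ratio was 0.884 for complex III, 0.888 for complex IV, 0.923 for complex V, 0.946 for complex I and 0.959 for complex II. 

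**Figure D1:**
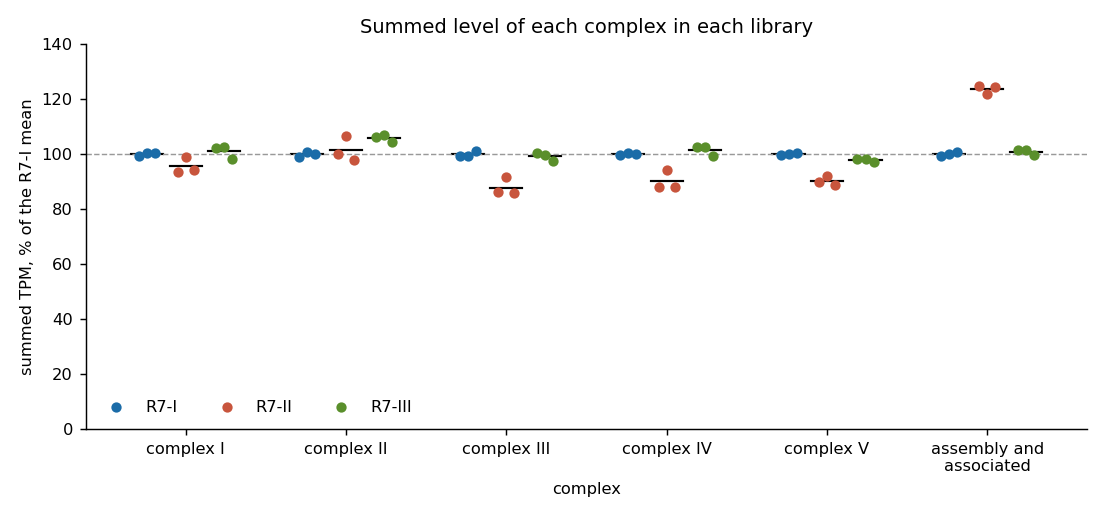
Summed TPM of each complex in each library, as a percentage of the R7-I mean (y axis), for 3 libraries per clone; points are libraries and black lines are means. All R7-II points of complexes III, IV and V lie below those of R7-I and R7-III, and those of the assembly and associated genes lie above.

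Differences were tested gene by gene with limma on log2(TPM + 1) over all 11330 genes that passed the filter, and a gene was called at a Benjamini-Hochberg adjusted p below 0.01. The pseudocount of 1 makes the changes of weakly expressed genes look smaller. The same tests called many genes outside the pathway, and R7-II differed broadly from the other clones, so the counts of members are set beside the share over all genes. Changes under another scaling, by the median of ratios, are also given because it moved the median change of all genes from 0.17 to 0.0084 for R7-II over R7-I and from 0.12 to 0.0042 for R7-II over R7-III. Quantile normalization, which gives every library the same distribution of values, moved it to -0.023 and 0.0016.

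R7-II had more members below R7-I than above. Of the 86, 32 (37.2%) were lower, where 15.5% of all genes tested were, and 8 (9.30%) were higher, where 40.6% of all genes were. The median log2 change of the members was -0.096, beside 0.17 for all genes tested. Under median-of-ratios scaling, 64 members were lower and 5 higher, where 28.5% and 26.0% of all genes were, and the median change was -0.27. Under quantile normalization, however, 22 (25.6%) were lower, a share near the 26.6% of all genes, and 7 (8.14%) were higher, beside 22.6%, with a median change of -0.074 for the members. Changes were small in size. Apart from Cox6b2, which is barely expressed, member log2 changes ran from -0.47 to 0.62.

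R7-II was likewise below R7-III for many members. There, 30 (34.9%) were lower, beside 18.0% of all genes, and 3 (3.49%) were higher, beside 35.6%. The median log2 change was -0.097 for the members and 0.12 for all genes tested. With median-of-ratios scaling the counts were 61 lower and 2 higher, beside 27.8% and 25.6% of all genes, and the median was -0.22. With quantile normalization 20 (23.3%) were lower, again near the 25.1% of all genes, and 5 (5.81%) were higher, beside 24.4%, with a median of -0.066. The comparisons of R7-II with R7-I and with R7-III share the R7-II libraries and are not independent of each other.

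R7-III and R7-I were far closer. Here 5 members (5.81%) were higher in R7-III, beside 6.96% of all genes, and 1 (1.16%) was lower, beside 1.45%. The members' share was near that of all genes, and their median log2 change was 0.0033, beside 0.045. With median-of-ratios scaling 3 were higher and 1 was lower, beside 4.95% and 3.44% of all genes. The 5 became 3 when R7-I replicate 1 or 2, or R7-III replicate 1 or 2, was left out.

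Without any model, 32 members (37.2%) had all 3 R7-II libraries below all 6 others, as did 17.4% of all genes tested. Another 6 (6.98%), Atp5sl, Cox7a2l, Ndufa6, Ndufaf1, Ndufv3 and Sdha, had R7-II above all others, against 41.7% of all genes. R7-I lay above the rest for 10 members (11.6%, against 4.98%) and below for 8 (9.30%, against 17.1%). R7-III lay above for 8 (9.30%, against 11.0%) and below for 1, Atp5sl (1.16%, against 6.28%).

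**Figure D2:**
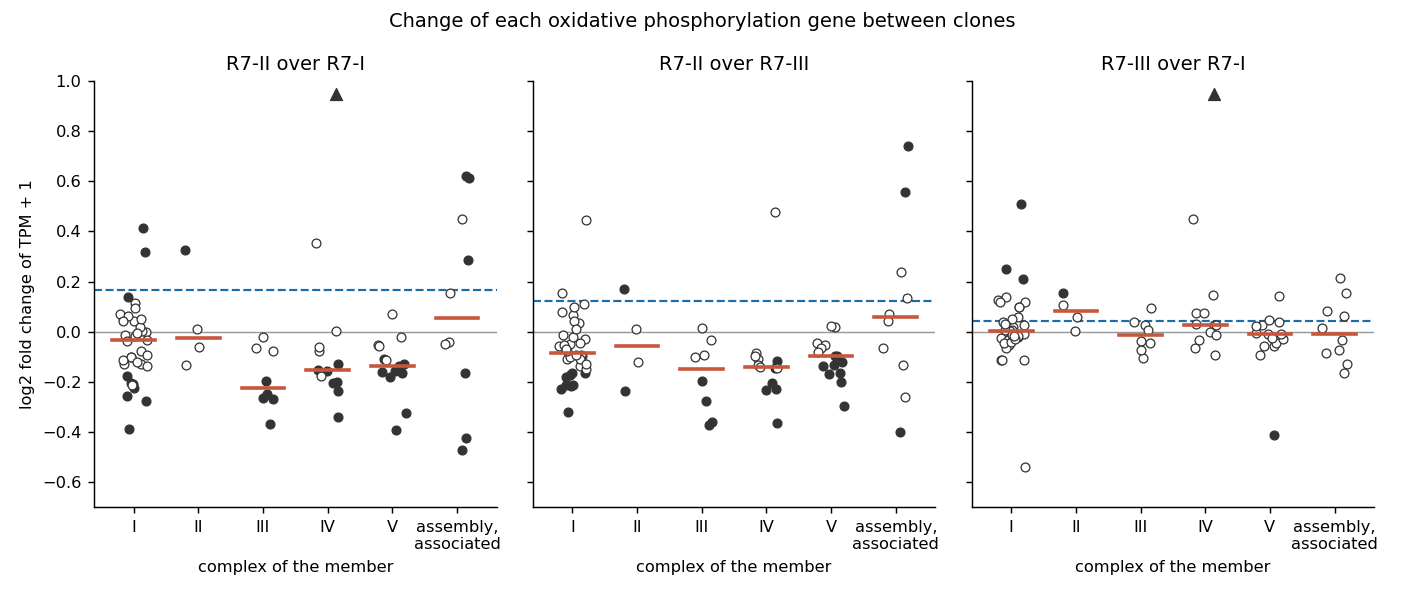
Log2 fold change of TPM + 1 (y axis) of each of the 86 members tested, by complex (x axis), for the 3 comparisons. Filled points passed the test, red lines are the medians of a complex, the dashed line is the median of all genes tested, and triangles at the top edge are Cox6b2, whose changes of 1.94 and 1.46 lie above the axis.

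Samples of R7-II also differed from the others in markers of other cells. The 8 markers of CD8 T cells, among them Cd3e and Cd8a, summed to 2206 to 2464 TPM in R7-I and R7-III and to 3111 to 3145 TPM in R7-II, with 7 of 8 called higher for R7-II in both comparisons. The labelled cell type was thus marked in all libraries. The 8 markers of B cells and MHC class II summed to 34.0 to 56.0 TPM in R7-I, 23.5 to 28.5 in R7-III and 129 to 227 in R7-II, and all 8 passed the test as higher for R7-II in both comparisons. The 5 myeloid markers in the table summed to 3.93 to 5.10, 4.84 to 6.33 and 22.1 to 72.2 TPM in the same order, with 4 of 5 higher than in R7-I and 5 of 5 higher than in R7-III. Csf1r and Fcer1g were at 0 in at least 1 R7-I library and Fcer1g in at least 1 R7-III library, none was at 0 in R7-II, and the 4 markers of CD4 T cells summed to 3.36 to 8.01 TPM in all libraries. R7-II replicate 2 had the lowest B cell and myeloid sums of its clone and the highest sum of members, 23921 TPM, still below all libraries of the other clones. Without it, 38 members were lower in R7-II relative to R7-I. The part of other cells in the member values was not tested, and in RNA of whole samples fewer cells of a type and less RNA per cell cannot be told apart.

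Complex I, the NADH dehydrogenase, is made of core and accessory subunits. None of the 7 core subunits passed the test between R7-II and R7-I, and their median log2 change was -0.0041. Under median-of-ratios scaling, however, 6 of the 7 were lower, beside 28.5% of all genes tested. Ndufs1, the large iron-sulfur subunit, measured 95.4, 93.3 and 95.7 TPM in R7-I, 100.3, 95.3 and 92.6 in R7-II and 95.9, 90.9 and 94.4 in R7-III, with all groups overlapping. Ndufs7 was the only core subunit called at the main scaling, lower in R7-II relative to R7-III with a log2 change of -0.23 ± 0.054 (SE; limma, adjusted p = 0.00338). That call was lost under 7 of 19 alternatives, namely quantile normalization, eBayes without trend, a fit of the 6 libraries alone, and without R7-II replicate 1 or 3 or R7-III replicate 1 or 2.

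Among the 29 accessory subunits of complex I, 7 were lower and 3 higher in R7-II relative to R7-I, and 8 were lower and none higher than in R7-III. The lower ones were 24.1% and 27.6% of the 29, beside 15.5% and 18.0% of all genes tested, and the 3 higher ones were 10.3%, beside 40.6%. Under median-of-ratios scaling these counts were 17 and 1, and 21 and 0. Of all genes, 28.5% were lower and 26.0% higher over R7-I there, and 27.8% and 25.6% over R7-III. Ndufab1, the mitochondrial acyl carrier protein that is both a subunit of complex I and a carrier in lipoic acid synthesis (chr7:122086815-122101848), measured 208, 208 and 215 TPM in R7-I, 155, 176 and 151 in R7-II and 197, 204 and 201 in R7-III. All R7-II libraries were below the rest. The fitted log2 change was -0.39 ± 0.049 over R7-I and -0.32 ± 0.049 over R7-III (SE; limma, adjusted p = 5.16e-05 and 2.07e-04), and it passed under all 19 alternatives in both comparisons. Its exons overlap the predicted gene Gm44986 on the other strand over 123 bases, and the library kit does not mark strand, so their reads cannot be told apart.

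Ndufa12, an accessory subunit of the matrix arm and the most abundant member of complex I, followed the same order. It measured 369, 364 and 355 TPM in R7-I, 289, 297 and 312 in R7-II and 338, 326 and 342 in R7-III, and the 3 clones did not overlap. This gave a log2 change of -0.28 ± 0.033 in R7-II over R7-I and -0.16 ± 0.033 over R7-III (SE; limma, adjusted p = 3.65e-05 and 0.00144). The call over R7-III was lost under quantile normalization (limma, adjusted p = 0.0255). Ndufs6, Ndufb6, Ndufb8 and Ndufb9 were also lower in both comparisons, with log2 changes from -0.26 to -0.17 that passed under every alternative. Ndufb6, Ndufb8 and Ndufb9 belong to the membrane arm, and Ndufs6 holds a zinc ion. Each of the 4 shares exon bases with another annotated gene, Ndufb6 with Smim27 (257 bases) and Ndufs6 with Mrpl36 (30 bases) on the other strand, and Ndufb8 with Gm20538 (134 bases) and Ndufb9 with Gm49356 (193 bases) on the same strand. Ndufb4 was lower in both as well, but kept the call against R7-I under only 14 of 19 alternatives and lost that against R7-III under 11.

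The accessory subunits that were higher in R7-II relative to R7-I were Ndufa3, Ndufa13 and Ndufv3, and the same 3 were higher in R7-III than in R7-I. Ndufa3, a small membrane-arm subunit (chr7:3617347-3620165), measured 148, 157 and 144 TPM in R7-I, 196, 207 and 195 in R7-II and 212, 221 and 207 in R7-III. R7-I was below both other clones without overlap. In log2 terms the change was 0.41 ± 0.040 in R7-II and 0.51 ± 0.040 in R7-III over R7-I (SE; limma, adjusted p = 7.46e-06 and 3.18e-05), each kept under all alternatives. 

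Ndufa13, also known as GRIM-19 (chr8:69894163-69902558), measured 71.3, 70.4 and 72.9 TPM in R7-I, 77.4, 78.4 and 81.1 in R7-II and 87.0, 86.4 and 82.3 in R7-III. The clones did not overlap, with R7-I lowest. Its log2 change was 0.25 ± 0.035 for R7-III over R7-I (SE; limma, adjusted p = 9.97e-04), kept under all alternatives. The change of 0.14 ± 0.035 for R7-II over R7-I (adjusted p = 0.00457) turned to -0.033 under median-of-ratios scaling. It was lost under 7 of 19 alternatives, the others being quantile normalization, eBayes without trend, the replicate block, and without R7-I replicate 1 or 2 or R7-II replicate 3. Its exons overlap those of Tssk6 on the other strand over 375 bases, which unstranded reads cannot separate. Ndufv3 measured 89.7 ± 5.11, 112 ± 4.17 and 104 ± 1.89 TPM (SD, n = 3) in R7-I, R7-II and R7-III, and its difference between R7-III and R7-I was lost under 13 of 19 alternatives. Its log2 change of 0.32 in R7-II over R7-I (limma, adjusted p = 9.96e-05) was lost under median-of-ratios scaling alone (adjusted p = 0.0186).

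**Figure D3:**
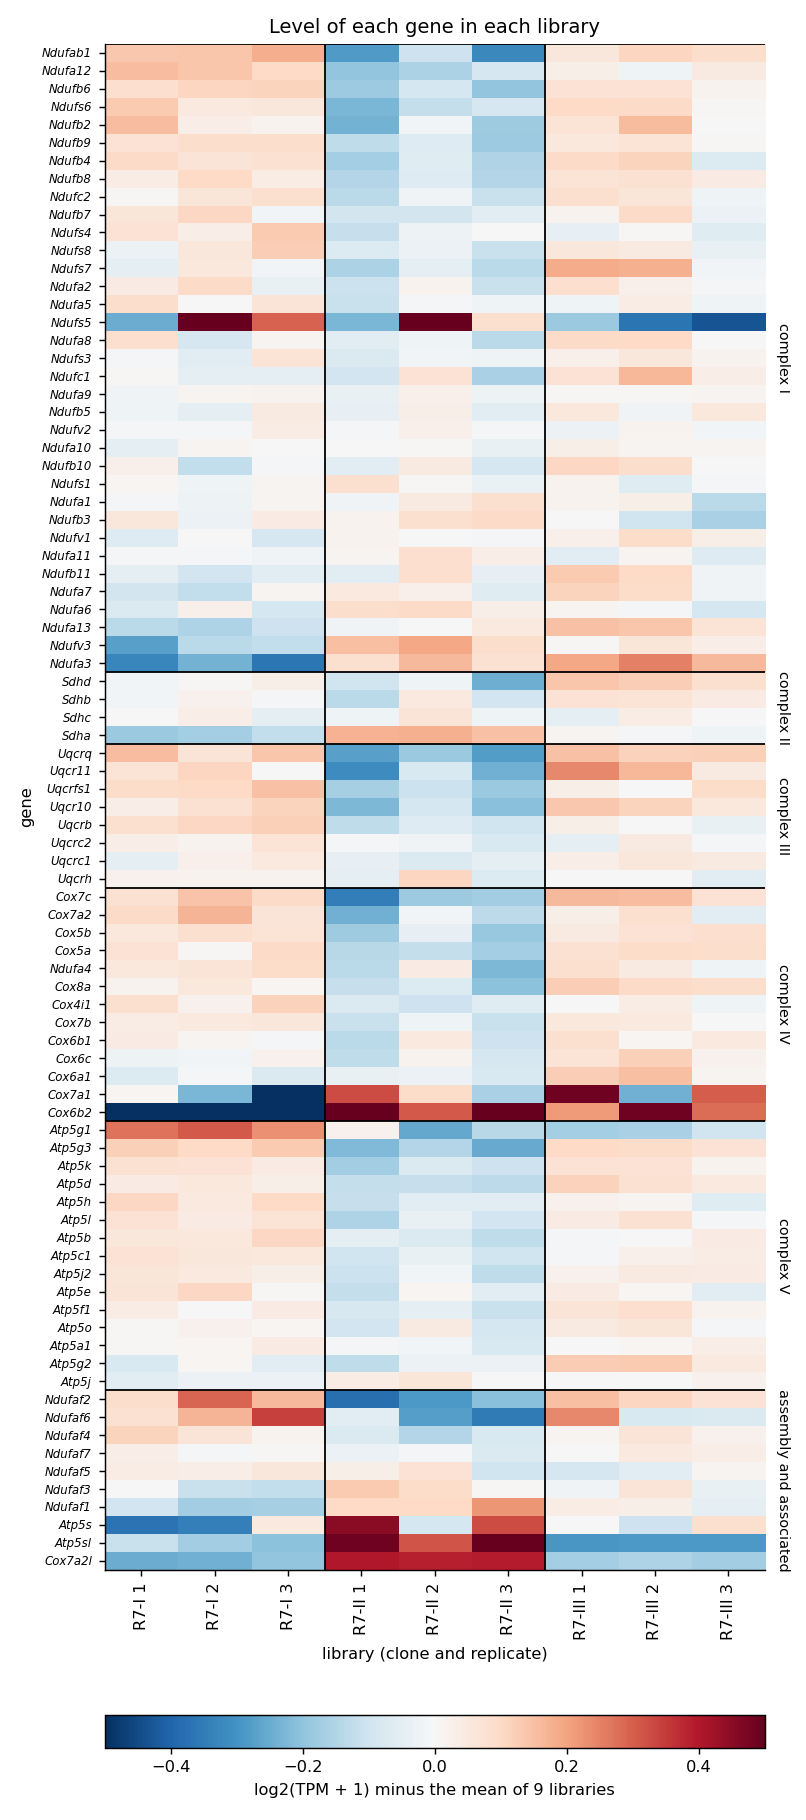
Heat map of 85 of the members tested (rows, grouped by complex and ordered by the change of R7-II over R7-I) in the 9 libraries (columns); colour is log2(TPM + 1) minus the gene's mean, and values beyond the scale take its end colour. Rows of complexes III, IV and V are mostly blue, below their mean, in the R7-II columns, and those of Cox7a2l, Atp5sl, Sdha and Cox6b2 are red there.

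Complex II, succinate dehydrogenase, is also an enzyme of the tricarboxylic acid cycle. Sdha, its flavoprotein (chr13:74322255-74350240), measured 146, 148 and 152 TPM in R7-I, 188, 188 and 184 in R7-II and 168, 166 and 164 in R7-III. The clones did not overlap, with R7-II highest and R7-I lowest. Its log2 change was 0.33 ± 0.028 in R7-II over R7-I (SE; limma, adjusted p = 2.98e-06), kept under all alternatives. The changes of 0.17 over R7-III (adjusted p = 3.05e-04) and of 0.16 for R7-III over R7-I (adjusted p = 0.00339, lost under 9 alternatives) had the same direction under median-of-ratios scaling but did not pass there.

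No other subunit of complex II was higher in R7-II. Sdhd, which anchors the enzyme in the membrane, measured 218, 221 and 225 TPM in R7-I, 205, 217 and 185 in R7-II and 242, 240 and 232 in R7-III. R7-II was below both other clones without overlap, with a log2 change of -0.24 ± 0.048 over R7-III (SE; limma, adjusted p = 0.00137) and of -0.13 over R7-I (adjusted p = 0.0323), which was not called. Sdhb and Sdhc, the iron-sulfur subunit and the other anchor, passed no test, with log2 changes of -0.060 and 0.011 for R7-II over R7-I. Under median-of-ratios scaling Sdhb, Sdhc and Sdhd were all lower in R7-II relative to R7-I while Sdha remained higher, and without R7-II replicate 2, 2 subunits of complex II were lower relative to each other clone.

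Complex III had the lowest median change of the 5 complexes in R7-II. Of its 8 nuclear subunits, 5 were lower than in R7-I (median log2 change of all 8, -0.22) and 4 were lower than in R7-III (median -0.15), with none higher. Among all genes tested, 15.5% and 18.0% were lower in the same comparisons, and 40.6% and 35.6% were higher. Under median-of-ratios scaling 8 and 7 were lower, beside 28.5% and 27.8% of all genes. Under quantile normalization 5 and 4 were lower (medians of -0.17 and -0.11), beside 26.6% and 25.1% of all genes. Uqcrq, the small ubiquinone-binding subunit (chr11:53427922-53430831), measured 556, 524 and 551 TPM in R7-I, 414, 439 and 412 in R7-II and 553, 542 and 543 in R7-III. All R7-II values were below the others, and R7-I and R7-III overlapped. Its log2 change was -0.37 ± 0.033 over R7-I and -0.37 ± 0.033 over R7-III (SE; limma, adjusted p = 4.11e-06 and 3.75e-06).

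Uqcrfs1, the Rieske iron-sulfur protein that hands electrons from ubiquinol to cytochrome c1, measured 239, 241 and 248 TPM in R7-I, 200, 208 and 197 in R7-II and 229, 225 and 239 in R7-III. Again R7-II lay below without overlap, with log2 changes of -0.27 and -0.20 (limma, adjusted p = 4.34e-05 and 4.04e-04). Uqcr10 was lower than in both clones as well (log2 changes of -0.25 and -0.28), and Uqcr11 measured 239 ± 8.98, 199 ± 17.3 and 256 ± 17.3 TPM (SD, n = 3), with log2 changes of -0.27 and -0.36. The call of Uqcr11 against R7-I was lost under 5 alternatives. The large core proteins Uqcrc1 and Uqcrc2, which face the matrix, were not called at the main scaling (-0.063 and -0.076 over R7-I), and neither was the hinge protein Uqcrh (-0.020).

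In complex IV, cytochrome c oxidase, 7 of 13 subunits tested were lower in R7-II relative to R7-I and 1 was higher, and 6 were lower and none higher than in R7-III. The lower ones were 53.8% and 46.2%, beside 15.5% and 18.0% of all genes tested, of which 40.6% and 35.6% were higher. The median log2 change was -0.15 and -0.14. Median-of-ratios scaling gave 11 lower and 1 higher, and 11 and 0, where 28.5% and 27.8% of all genes were lower. Quantile normalization gave 2 lower and 1 higher (median -0.048), and 3 and 0 (median -0.082). The lower shares there, 15.4% and 23.1%, were below the 26.6% and 25.1% of all genes. Without the trend in eBayes 4 were lower than in R7-I. Without R7-II replicate 2, 10 were lower than in R7-III. Cox7c (chr13:86044798-86046795), a small membrane subunit, measured 553, 579 and 560 TPM in R7-I, 412, 462 and 465 in R7-II and 587, 584 and 551 in R7-III. R7-II was below without overlap, with log2 changes of -0.34 ± 0.046 and -0.36 ± 0.046 (SE; limma, adjusted p = 8.02e-05 and 5.04e-05). Cox5a, a matrix-side subunit that binds a thyroid hormone metabolite, measured 462 ± 14.9, 401 ± 6.90 and 470 ± 2.19 TPM (SD, n = 3) and was lower with log2 changes of -0.20 and -0.23, in every alternative. Its exons overlap Gm26631 on the other strand over 145 bases.

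Cox4i1, the regulatory subunit that binds ATP and the most abundant of complex IV, measured 678, 651 and 695 TPM in R7-I, 610, 596 and 616 in R7-II and 643, 659 and 631 in R7-III. R7-II was lowest without overlap, but only the change of -0.15 ± 0.029 over R7-I passed (SE; limma, adjusted p = 9.83e-04), and it was lost under quantile normalization. The change over R7-III was -0.085 (adjusted p = 0.0258). Cox6a1, the ubiquitous form of a subunit with a muscle form, had a log2 change of 0.0019 in R7-II over R7-I, which was not called, and was lower in R7-II relative to R7-III (log2 change -0.14, limma, adjusted p = 0.00554), a call lost under 8 alternatives.

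Cox6b2, the testis form of a subunit that joins the monomers of complex IV (chr7:4751792-4753094), went the other way at a very low level. It was listed at 0.00, 0.22 and 0.00 TPM in R7-I, at 4.74, 1.90 and 3.15 in R7-II and at 1.72, 2.29 and 1.85 in R7-III. R7-I was below both other clones. The change on the log2(TPM + 1) scale was 1.94 ± 0.21 in R7-II and 1.46 ± 0.21 in R7-III over R7-I (SE; limma, adjusted p = 1.90e-05 and 0.00125), and with a pseudocount of 5 the latter did not pass (adjusted p = 0.0112). The common form Cox6b1 stood at 563 to 653 TPM in all libraries and passed no test at the main scaling, but was lower in R7-II relative to R7-I and to R7-III under median-of-ratios scaling (limma, adjusted p = 0.00296 and 0.00455) and without R7-II replicate 2.

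**Figure D4:**
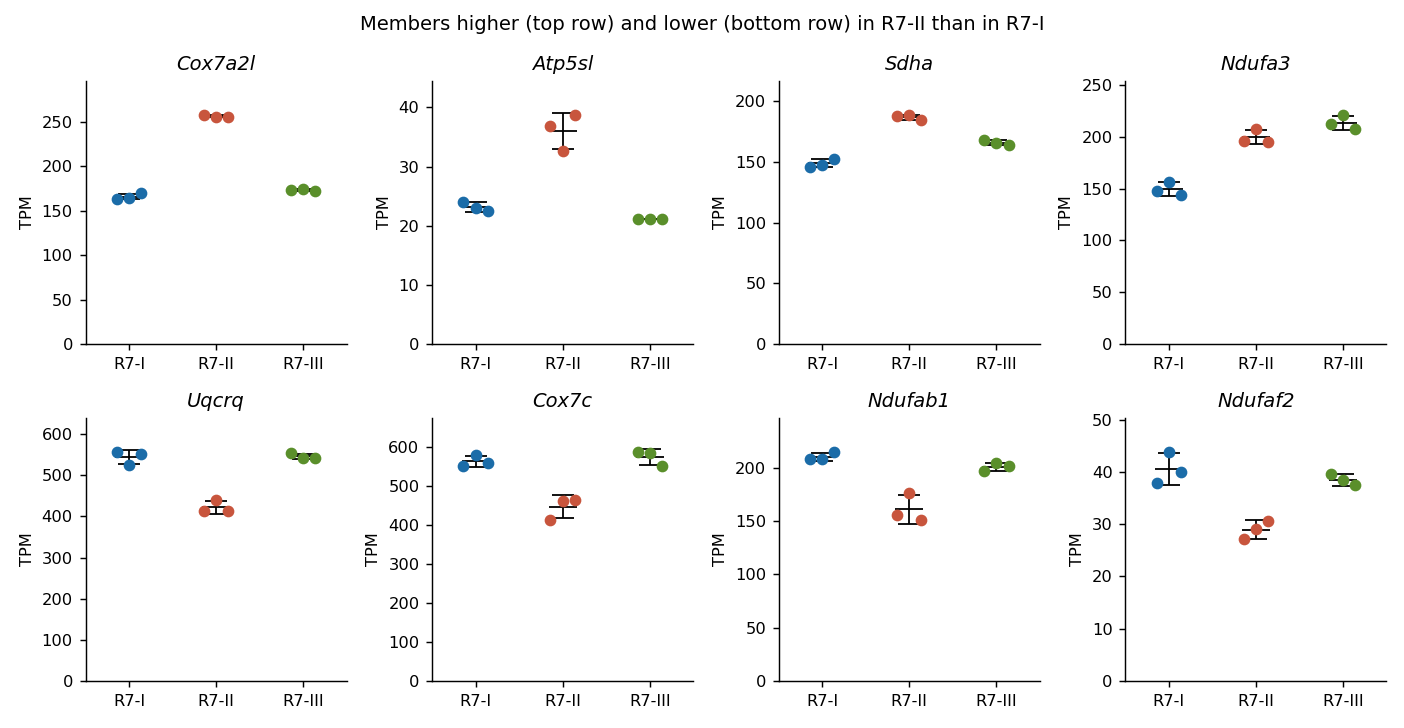
TPM (y axis, from 0) of 8 members in each library, by clone (x axis); coloured points are libraries, and black marks are the mean and SD of 3. In the top row R7-I lies below R7-II, and in the bottom row R7-II lies below R7-I and R7-III without overlap.

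In complex V, 10 of 15 subunits were lower in R7-II relative to R7-I and 9 were lower than in R7-III, with none higher. The lower ones were 66.7% and 60.0%, beside 15.5% and 18.0% of all genes tested, of which 40.6% and 35.6% were higher. The median log2 change was -0.14 and -0.095. Under median-of-ratios scaling all 15 and 12 were lower, beside 28.5% and 27.8% of all genes. Under quantile normalization, however, 3 were lower and 1 higher relative to R7-I (median -0.071), and 2 and 1 relative to R7-III (median -0.055). The lower shares there, 20.0% and 13.3%, were below the 26.6% and 25.1% of all genes. The 9 against R7-III became 4 or 5 without R7-II replicate 3, without R7-III replicate 1 or 2, without the trend in eBayes and in a fit of the 6 libraries alone. Atp5b (chr10:128083307-128090388) measured 2041, 2034 and 2108 TPM in R7-I, 1900, 1866 and 1797 in R7-II and 1954, 1968 and 2020 in R7-III. R7-II was lowest and R7-I highest without overlap. The fitted log2 change was -0.15 ± 0.027 over R7-I and -0.095 ± 0.027 over R7-III (SE; limma, adjusted p = 5.21e-04 and 0.00977), the former lost under quantile normalization and the latter under 14 of 19 alternatives.

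The central stalk turns inside the catalytic head. Of its subunits, Atp5c1, the gamma subunit, and Atp5d, the delta subunit, were lower in R7-II relative to R7-I, with log2 changes of -0.14 and -0.16 (limma, adjusted p = 7.77e-04 and 1.34e-04), while the epsilon subunit Atp5e was at -0.11 and not called (adjusted p = 0.0229). Atp5d measured 538, 542 and 533 TPM in R7-I, 481, 482 and 476 in R7-II and 565, 551 and 540 in R7-III, with R7-II below all others. Its call over R7-I was lost under quantile normalization (limma, adjusted p = 0.025). Atp5k and Atp5l, subunits of the membrane sector at which ATP synthases pair, were lower in both comparisons (-0.18 and -0.17, and -0.15 and -0.13). Both calls of Atp5k were lost under quantile normalization, those of Atp5l under 2 alternatives against R7-I (quantile normalization and eBayes without trend) and under 8 against R7-III, which included leaving out R7-II replicate 1 or 3 or R7-III replicate 1 or 2. Atp5a1, the alpha subunit that alternates with beta in the catalytic head, and Atp5o, which joins head and stator, passed no test at the main scaling (-0.051 and -0.058 over R7-I). Atp5j stood between 325 and 331 TPM in the R7-I libraries and between 337 and 352 in those of R7-II, a log2 change of 0.070 that was not called at the main scaling, was called as lower in R7-II under median-of-ratios scaling (limma, adjusted p = 0.00985) and as higher under quantile normalization (adjusted p = 0.00126). Exons of Atp5j overlap those of Gabpa on the other strand over 123 bases, and those of Atp5l overlap Gm30934 over 133 bases.

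The 3 genes of the c subunit, whose sequences are given above, each had their own pattern. Atp5g1 measured 513, 527 and 499 TPM in R7-I, 432, 356 and 386 in R7-II and 378, 380 and 396 in R7-III. R7-I was above both other clones, which overlapped. This gave a log2 change of -0.39 ± 0.057 in R7-II and -0.41 ± 0.057 in R7-III over R7-I (SE; limma, adjusted p = 1.34e-04 and 9.16e-04), each kept in every alternative, and Atp5g1 was the only member lower in R7-III than in R7-I.

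Atp5g3 instead set R7-II apart. It measured 1100, 1084 and 1110 TPM in R7-I, 868, 915 and 850 in R7-II and 1086, 1080 and 1064 in R7-III. The change was -0.32 ± 0.028 over R7-I and -0.30 ± 0.028 over R7-III (SE; limma, adjusted p = 3.87e-06 and 7.70e-06). Atp5g2 measured 685, 727 and 693 TPM in R7-I, 660, 707 and 707 in R7-II and 787, 789 and 746 in R7-III. R7-III was above both others without overlap, R7-II was lower than R7-III with a log2 change of -0.16 ± 0.036 (SE; limma, adjusted p = 0.00241, lost under 4 alternatives), and the change of 0.14 for R7-III over R7-I was not called (adjusted p = 0.0216).

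The genes also took different shares of the summed c subunit transcripts. Atp5g1 gave 22.2% ± 0.450, 20.0% ± 2.03 and 17.2% ± 0.647 of their sum (SD, n = 3) in R7-I, R7-II and R7-III. For Atp5g2 the shares were 30.3% ± 0.679, 35.3% ± 1.41 and 34.6% ± 0.697. Atp5g3 gave 47.5% ± 0.986, 44.8% ± 1.33 and 48.2% ± 0.128. These shares describe the libraries and were not tested. Since the shares are ratios within a library, they do not depend on how libraries are scaled to each other.

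**Figure D5:**
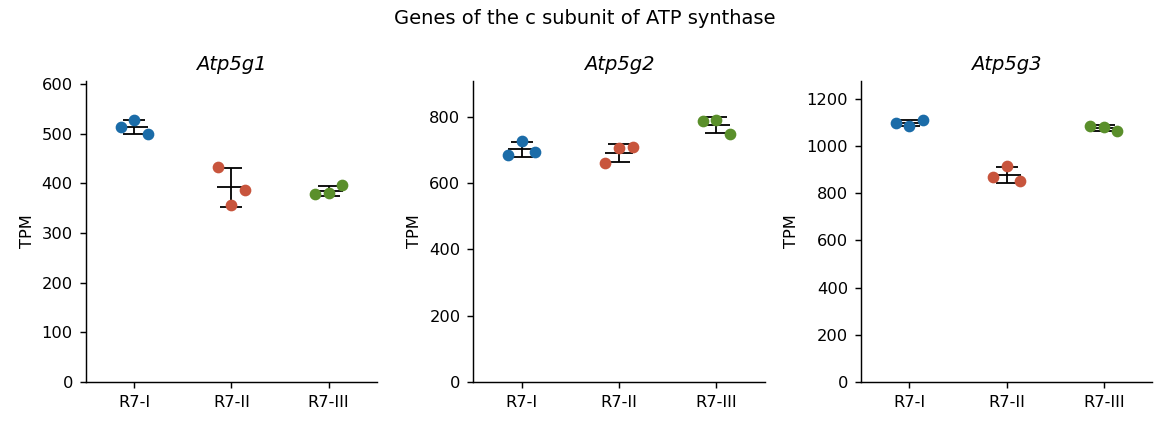
TPM (y axis, from 0) of Atp5g1, Atp5g2 and Atp5g3 in each library, by clone (x axis); coloured points are libraries, and black marks are the mean and SD of 3. Atp5g1 is highest in R7-I, Atp5g2 is highest in R7-III, and Atp5g3 is lowest in R7-II.

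The assembly and associated genes differed in both directions. In R7-II over R7-I 3 of 10 tested were higher and 3 lower, and in R7-II over R7-III 2 were higher and 1 lower. Among all genes tested, 40.6% were higher and 15.5% lower over R7-I, and 35.6% and 18.0% over R7-III. Only the lower share over R7-I was above that of all genes, and the other shares were below. Under median-of-ratios scaling 2 were higher and 4 lower in each comparison. Of all genes, 26.0% and 28.5% were so over R7-I there, and 25.6% and 27.8% over R7-III. The 3 lower than in R7-I became 1 without R7-I replicate 2 or R7-II replicate 2. They became 5 under quantile normalization, where 26.6% of all genes were lower. Their median log2 change of 0.056 over R7-I turned negative under median-of-ratios scaling (-0.11), quantile normalization (-0.21) and with no filter on low TPM (-0.0043), and that of 0.058 over R7-III under the first 2 of these. Cox7a2l, also called SCAF1, tethers complex III to complex IV in supercomplexes (chr17:83501917-83514333). It measured 164, 165 and 170 TPM in R7-I, 257, 255 and 256 in R7-II and 173, 175 and 173 in R7-III. The R7-II libraries stood above all others and within 3 TPM of each other. In log2 terms the change was 0.62 ± 0.025 over R7-I and 0.56 ± 0.025 over R7-III (SE; limma, adjusted p = 3.39e-08 and 7.11e-08), and it passed under all alternatives.

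Atp5sl, whose symbol recalls ATP synthase but whose product takes part in building complex I (chr7:25619414-25625550), measured 24.1, 23.0 and 22.5 TPM in R7-I, 36.8, 32.6 and 38.7 in R7-II and 21.1, 21.1 and 21.2 in R7-III. R7-II was highest and R7-III lowest without overlap. Its log2 change was 0.61 ± 0.060 over R7-I and 0.74 ± 0.060 over R7-III (SE; limma, adjusted p = 8.29e-06 and 2.26e-06). Its window is among the 11 member windows that hold the YY1 letters, a match that was not tested as a binding site.

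Ndufaf2, an assembly factor resembling the subunit Ndufa12 that later takes its place in complex I (chr13:108052589-108158652), measured 37.9, 43.8 and 40.0 TPM in R7-I, 27.2, 29.0 and 30.7 in R7-II and 39.6, 38.4 and 37.4 in R7-III. R7-II was lowest, and the other clones overlapped. The fitted log2 change was -0.47 ± 0.061 over R7-I and -0.40 ± 0.061 over R7-III (SE; limma, adjusted p = 5.47e-05 and 1.91e-04), in every alternative. Ndufaf6, another assembly factor, measured 20.5 ± 2.01, 15.0 ± 1.76 and 18.2 ± 2.50 TPM (SD, n = 3), and its call of -0.42 over R7-I was lost under 6 alternatives. Ndufaf1, which acts on an early intermediate of the membrane arm, was higher in R7-II relative to R7-I by 0.29 (limma, adjusted p = 7.34e-04), but not under median-of-ratios scaling or quantile normalization. 

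Genes that serve the complexes without matching the symbol rule were counted from separate lists. Of 37 other assembly factors, 4 were higher and 6 lower in R7-II relative to R7-I, and 0 were higher and 5 lower than in R7-III. The lower shares of 16.2% and 13.5% were near or below the 15.5% and 18.0% of all genes tested, and fewer of the list than of all genes (40.6% and 35.6%) were higher. Under median-of-ratios scaling these counts were 1 and 18, and 0 and 14. Of all genes, 26.0% were higher and 28.5% lower over R7-I there, and 25.6% and 27.8% over R7-III. Cox17, the copper chaperone of complex IV, measured 200 ± 3.14, 152 ± 8.37 and 229 ± 15.4 TPM (SD, n = 3) in R7-I, R7-II and R7-III, lower in R7-II with log2 changes of -0.40 and -0.59 (limma, adjusted p = 5.97e-05 and 3.71e-06). Cox18, which inserts the Cox2 subunit into the membrane, was lowest in R7-I with 21.8 ± 0.805, 34.1 ± 0.467 and 40.5 ± 1.36 TPM (SD, n = 3). Its log2 change was 0.63 in R7-II and 0.87 in R7-III over R7-I (adjusted p = 8.59e-07 and 1.38e-06). Uqcc2, a complex III assembly factor, was lower in R7-II than in both (-0.35 and -0.43).

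Among 8 genes of electron carriers and the ATP synthase inhibitor, 3 were higher and 4 lower in R7-II relative to R7-I, and 1 was higher and 4 lower than in R7-III. The 3 higher ones were 37.5% of the list, near the 40.6% of all genes, while 15.5% and 18.0% of all genes were lower. With median-of-ratios scaling the counts were 1 and 5, and 1 and 4. Of all genes, 26.0% were higher and 28.5% lower over R7-I there, and 25.6% and 27.8% over R7-III. Cycs, the cytochrome c that carries electrons from complex III to IV, measured 184, 189 and 184 TPM in R7-I, 133, 138 and 136 in R7-II and 181, 179 and 179 in R7-III. R7-II was lower, with log2 changes of -0.45 ± 0.027 and -0.40 ± 0.027 (SE; limma, adjusted p = 2.73e-07 and 5.40e-07). Etfdh, which brings electrons from fatty acid oxidation to ubiquinone, was higher in R7-II (0.46 and 0.52), whereas Etfb, a subunit of the carrier that feeds it, was lower (-0.27 and -0.49).

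Of 15 genes of the tricarboxylic acid cycle, 2 were higher (13.3%) and 5 lower (33.3%) in R7-II in each comparison, beside 40.6% and 15.5% of all genes over R7-I and 35.6% and 18.0% over R7-III. These counts became 0 and 11 over R7-I and 1 and 9 over R7-III under median-of-ratios scaling. With that scaling, 26.0% of all genes were higher and 28.5% lower over R7-I, and 25.6% and 27.8% over R7-III. Idh3a, a subunit of the NAD-dependent isocitrate dehydrogenase, measured 126 ± 1.10, 102 ± 2.01 and 124 ± 2.84 TPM (SD, n = 3) and was lower in R7-II (log2 changes of -0.31 and -0.29), and Ogdh, of the oxoglutarate dehydrogenase, was lower too (-0.28 and -0.25). Suclg1, of succinyl-CoA ligase, was higher by 0.26 and 0.29, the former lost under median-of-ratios scaling. Among 13 genes of mitochondrial transcription, replication and biogenesis, 4 were higher (30.8%, below the 40.6% and 35.6% of all genes) and 1 lower (7.69%, below 15.5% and 18.0%) in R7-II in each comparison, but under median-of-ratios scaling these were 0 and 4 over R7-I and 1 and 3 over R7-III. Gabpa, a subunit of the ETS factor GABP, was higher by 0.24 and 0.28, and the former did not pass under median-of-ratios scaling or quantile normalization. Across these lists Cox18 was the only gene called in R7-III over R7-I at the main scaling.

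The calls held to different degrees. Between R7-II and R7-I, 16 of the 32 lower members and 5 of the 8 higher ones passed under every alternative that tested them. Between R7-II and R7-III 16 of 30 and 2 of 3 did. Cox6b2, 1 of the 5, was tested in 18 alternatives, as a filter of at least 1 TPM in every library left it out. The 16 of the first comparison included Ndufab1, Ndufa12, Ndufs6, Uqcrq, Uqcrb, Uqcr10, Uqcrfs1, Cox5a, Cox7c, Atp5c1, Atp5g1 and Atp5g3. Between R7-III and R7-I, Ndufa3, Ndufa13 and Atp5g1 did.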

How the data were processed

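RNA was measured in 9 libraries of sorted cells, 3 per clone, grouped by the clone in the labels, with the replicate numbers of the labels. The authors prepared libraries from polyA RNA with a TruSeq kit that does not mark strand and deposited TPM values estimated with RSEM 1.2.11 on mm10 RefSeq genes, per gene symbol. Which aligner RSEM called: not given in the sources used here. TPM keeps no depth, so no counting error is given. The authors' own test used DESeq2 on counts, which were not used here.

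Genes with a maximum TPM above 1 were put on the log2(TPM + 1) scale and tested with limma 3.58.1 (lmFit and eBayes with trend) in R 4.3.3, all 9 libraries in 1 fit, with a threshold of 0.01 on the Benjamini-Hochberg adjusted p. The fit was also run on simulated data in which 200 of 10760 genes changed, evenly in both directions. These data had far more calls, unevenly split, so that run cannot show how scaling moves the counts. Named members were the most abundant of each complex, the least abundant of most complexes and the 3 genes of the c subunit. Up to 5 called members with the largest changes in each direction and comparison were named too. Core subunits and tissue-restricted isoforms were also listed for naming, but not all listed core subunits are given. Cox5b and Atp5f1 (the least abundant of complex V) were left out, though both were called lower in R7-II in both comparisons at the main scaling. Members named beyond these rules were chosen after their values were seen. The motif letters of NRF1 and YY1 were shortened to 8 bases after a longer form had been searched. The members and lists were chosen with earlier results of these data known. Positions, promoter windows and names are from RefSeq GRCm38.p6, where all 92 members had an entry, 3 of them by an older symbol, and coding sequences and exon overlaps are from GENCODE. The 19 alternatives for each comparison were another pseudocount (0.1 or 5), filter, scaling, moderation or threshold (0.05), a fit of only the 6 libraries compared, a block for the replicate number, and leaving out single libraries. The values of 1 member are not reported here.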

Additional observations from a re-analysis of the deposited data

How the results depend on the processing

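The scaling mattered most. Under median-of-ratios scaling, R7-II over R7-I gave 5 members higher and 64 lower with a median log2 change of -0.27, and R7-II over R7-III gave 61 lower with a median of -0.22. Of all genes, 28.5% and 27.8% were lower there. The change of Ndufa13 for R7-II over R7-I became -0.033 (limma, adjusted p = 0.476). Quantile normalization instead gave 22 lower members over R7-I and 20 over R7-III, shares near those of all genes. For R7-II over R7-III, 5 members were higher under quantile normalization and 7 at a threshold of 0.05. For R7-III over R7-I, 3 members were higher under median-of-ratios scaling, under quantile normalization, without the trend in eBayes and with the replicate block, and 3 were lower at a threshold of 0.05. The cause was not tested. When single libraries were left out, R7-II over R7-I gave 7 to 9 higher and 26 to 38 lower members (median -0.12 to -0.072), R7-II over R7-III gave 3 to 4 and 20 to 38 (median -0.12 to -0.083), and R7-III over R7-I gave 3 to 5 and 1 (median 0.0015 to 0.020). The 38 came without R7-II replicate 2 in both, and the 3 without R7-I replicate 1 or 2 or R7-III replicate 1 or 2. With the replicate number as a block, 7 and 31, 3 and 29, and 3 and 1 members were higher and lower in the 3 comparisons. Deviations of libraries with the same number correlated from -0.0449 to 0.0888 over 9 pairs, none above 0.1, so no effect shared by number was seen. These values cannot show whether libraries with the same number were handled together. Over the named genes, 853 results kept direction and side of the threshold, 94 no longer passed and 1 turned. The tally had no class for calls gained under an alternative. Atp5a1, Uqcrc1 and Uqcrc2, for example, were not called in R7-II over R7-I at the main scaling but were lower under median-of-ratios scaling.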

Other observations

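Ndufs5, a small accessory subunit of complex I on the intermembrane side, varied most within a clone. It measured 86.2, 154 and 126 TPM in R7-I, 87.4, 145 and 108 in R7-II and 89.9, 79.4 and 75.7 in R7-III, and the clones overlapped. Its within-clone SD was 0.33 on the log2 scale, where the median member had 0.050. It passed no test between clones.

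Across the 85 members tested with a transcript length, the Spearman correlation of length with log2 change was 0.0968 for R7-II over R7-I and 0.231 for R7-II over R7-III, beside 0.13 and 0.153 over all genes tested with a length. The genes share the same libraries and are not independent. The median transcript of a member was 838 bases long, that of a gene tested 2806 bases. Exons of 25 of the 92 members overlap those of another annotated gene.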
